A study of Apis mellifera with 2 samples.

Results

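ame-miR-31a and ame-miR-190, called miR-31a and miR-190 here, were chosen from the deposited miRNA table of honey bee larvae because both are conserved miRNAs, lie in no cluster with other named miRNAs and take a larger share of the counts in worker than in queen larvae. They are 2 of 53 entries with honey bee miRNA names and 2 of 692 entries in all. The other 639 entries are predictions known by a number alone, and a prediction that carries the same number as miR-190 was not taken as it. The shares that chose them are given below as a description of 2 libraries, and no test was made on them.

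The worker library came from larvae left to develop as workers, and the queen library from larvae of less than 18 h after hatching that were moved into queen cups, 150 in each colony. Both castes came from the same 3 colonies of Zhenongda No.1, a breed of Apis mellifera ligustica kept for its high royal jelly yield, so all values are from that strain alone. Sampling took 40 to 60 larvae per caste and colony at ages between 73 and 138 h after hatching (days 4, 5 and 6), and the RNA of the 3 days was pooled in similar amounts. No dissection is mentioned in the labels, so each library is taken as a mixture of many tissues, in which fewer cells of a type and less RNA per cell cannot be told apart. There was 1 library per caste and no replicate. The difference between larvae, colonies or days was not measured, no p-value was computed, and every interval is a 95% interval of counting error in which each read counts as an independent molecule.

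A miRNA is cut from a hairpin precursor and guides an Argonaute protein to messenger RNAs, mainly through its seed, the bases near its 5′ end, and lowers the output of those messengers. The diet of a female honey bee larva sets its caste: larvae fed royal jelly throughout become queens, and those moved to a poorer diet become workers. miR-31 is found across bilaterian animals. It has been studied in mammals for its part in epithelial tissues and in the spread of tumour cells, and in Drosophila embryos blocking it disturbed segmentation. miR-190 is likewise conserved, lies within a talin gene in mammals and in Drosophila, and in Drosophila lowers Fatiga, the prolyl hydroxylase that marks the hypoxia factor for breakdown. None of these roles was measured here. No sequence of either miRNA was used.

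miR-31a was among the main miRNAs of both castes and took the larger share in worker larvae. It had 115613 counts in the worker library (114948 to 116281) and 59518 in the queen library (59041 to 59998). With the totals of all listed counts at 2318675 for worker and 2658259 for queen, these were 4.99% of worker counts (4.96 to 5.01) and 2.24% of queen counts (2.22 to 2.26). The worker library thus held the larger number of miR-31a reads although its total was the smaller. Per 1000000 listed counts, a unit called CPM, miR-31a stood at 49862 in worker and 22390 in queen, a ratio of worker over queen of 2.23 (2.21 to 2.25), or 1.16 on the log2 scale. Among the named miRNAs it ranked 5th in the worker library and 6th in the queen library. The exchange was with miR-996, which had 91839 worker and 111412 queen counts, so that miR-31a lay above it in worker larvae and below it in queen larvae.

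miR-190 was a miRNA of middle abundance with a larger relative difference. It had 10161 counts in the worker library (9964 to 10360) and 3862 in the queen library (3741 to 3986), or 0.438% of worker counts (0.430 to 0.447) and 0.145% of queen counts (0.141 to 0.150). In CPM it stood at 4382 in worker and 1453 in queen, a ratio of worker over queen of 3.02 (2.91 to 3.13), or 1.59 on the log2 scale. Its rank among named miRNAs was 15th in the worker library and 18th in the queen library. It lay above miR-317, miR-iab-4, miR-279 and miR-375 in worker larvae and below these 4 in queen larvae. The reverse held for miR-263, which had 15091 worker and 3222 queen counts and lay above miR-190 in worker larvae and below it in queen larvae. Ranks are taken within a library and do not depend on how the libraries were scaled to each other.

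**Figure D1:**
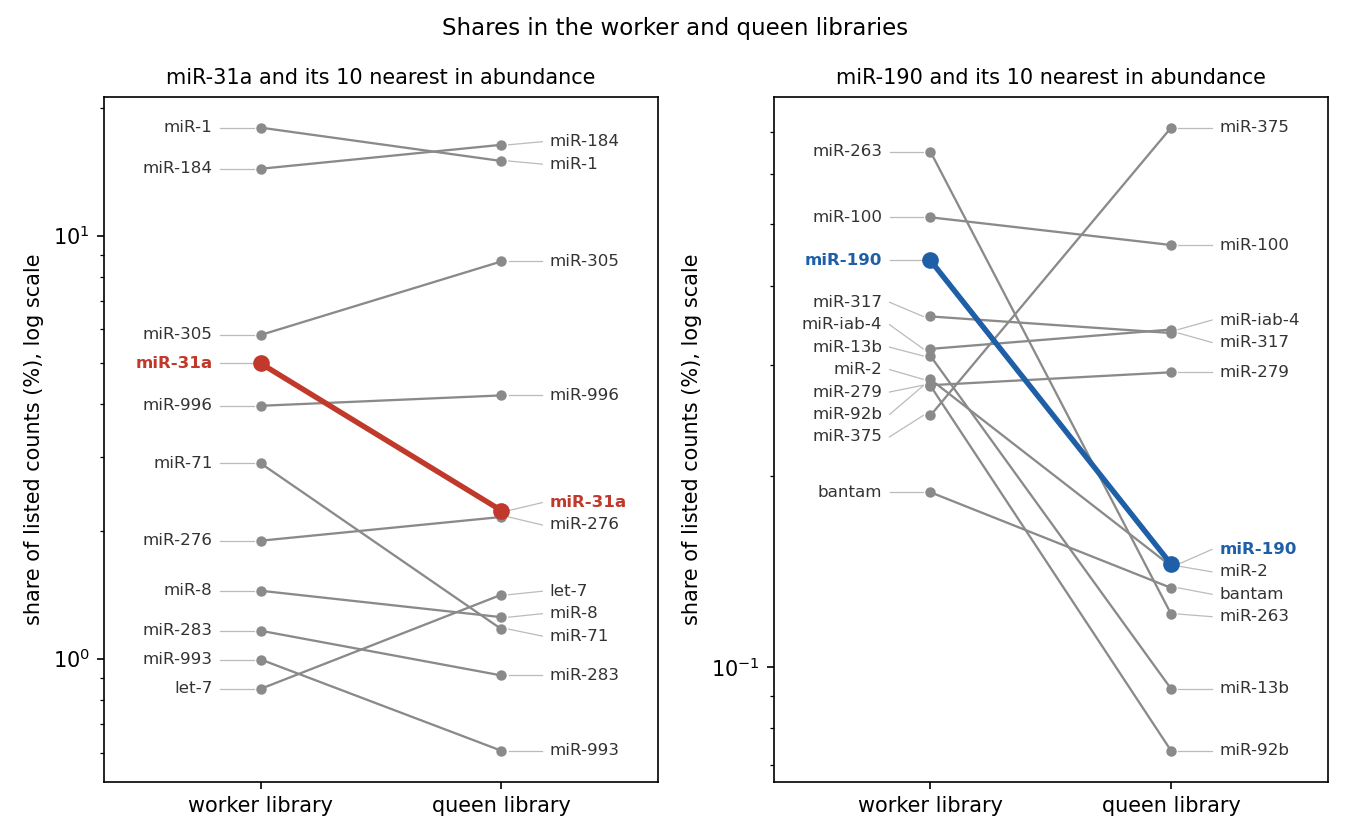
Share of listed counts (%, log scale) in the worker library (left of each panel) and the queen library (right) for miR-31a, miR-190 and the 10 named miRNAs nearest to each in mean share; each line joins the 2 values of a miRNA, with 1 library per caste. miR-31a stood at 4.99% in worker and 2.24% in queen, and miR-190 at 0.438% in worker and 0.145% in queen, both with steeper lines than most of their neighbours. Both were chosen for a larger worker share.

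In percentage points the share of miR-31a was 2.75 higher in the worker library, second among named miRNAs to miR-1, a muscle miRNA, at 2.99 points (18.0% of worker counts and 15.0% of queen counts). miR-71, at 1.72 points, came next. miR-190 was 0.293 points higher in worker and stood sixth. The pair together took 5.42% of worker counts and 2.38% of queen counts. Of the named miRNAs, 41 had a larger share in the worker library and 12 a smaller one. The summed gain of these 41 was 10.2 points, of which miR-31a and miR-190 made up 29.7%, nearly all of it from miR-31a. Both were chosen for a larger worker share, which raises this part, so nothing is read from it. Predicted entries, 4.76% of worker counts and 3.36% of queen counts, are not in that sum. Shares within a library add up to a fixed whole, so no number of molecules per larva can be read from them.

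Reads of miR-31a outnumbered those of miR-190 in both castes, by 11.4 to 1 in the worker library (11.1 to 11.6) and by 15.4 to 1 in the queen library (14.9 to 15.9). The worker quotient was 0.738 of the queen quotient (0.711 to 0.767), which is the same fact as the larger caste ratio of miR-190 and needs no scaling of the libraries. Small RNA libraries recover some sequences better than others, so neither quotient is a ratio of molecules.

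The next question was how the caste ratio of each compared with the named miRNAs nearest to it in abundance, which were picked by mean share and not by their ratio. miR-31a and miR-190 were themselves chosen for a larger worker share. A place above most neighbours was thus partly set by that choice, and it is given as a description only. miR-31a had a mean share of 3.61%. The 10 nearest to it had mean shares from 0.801% to 16.5%, so some were far from it in abundance. Their ratios of worker over queen ran from 0.599 to 2.46 with a median of 1.04, 5 above 1 and 5 below. Of these 10, 9 had a lower ratio than miR-31a. The 1 with a higher ratio was miR-71, a miRNA of the mir-2 cluster, at 2.46 (2.43 to 2.50), and it was also the 1 neighbour at least 2-fold higher in worker. miR-996, the closest in mean share, had a ratio of 0.945 (0.937 to 0.953). miR-276, with 44073 worker and 57489 queen counts, nearly equalled miR-31a in queen counts and had a ratio of 0.879 (0.868 to 0.890). miR-305 had 0.670 (0.666 to 0.675) and let-7, a regulator of developmental timing, had 0.599 (0.589 to 0.610). On the log2 scale miR-31a lay 1.09 above the median of its neighbours.

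The 10 nearest to miR-190 had mean shares from 0.161% to 0.488% and spread more widely, with ratios of worker over queen from 0.351 to 5.37 and a median of 1.25. Of these, 7 had a ratio above 1 and 3 below, and 7 had a lower ratio than miR-190. The 3 with a higher ratio were miR-263 at 5.37 (5.17 to 5.58), miR-92b at 3.77 (3.58 to 3.97) and miR-13b at 3.35 (3.20 to 3.51). miR-2, whose 3835 queen counts came closest to the 3862 of miR-190, had 6596 worker counts and a ratio of 1.97 (1.89 to 2.05). At the other end miR-375, known in vertebrates from the pancreatic islets, had 5784 worker and 18879 queen counts and a ratio of 0.351 (0.341 to 0.362). miR-279, the closest in mean share, had 0.954 (0.923 to 0.986). On the log2 scale miR-190 lay 1.27 above the median of its neighbours. These differences from the neighbours do not depend on the scaling between libraries. The values of miR-2, miR-13b, miR-92b, miR-263, miR-279 and miR-996 are uncertain, since each has a close relative in the table and it is not known how shared reads were counted.

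**Figure D2:**
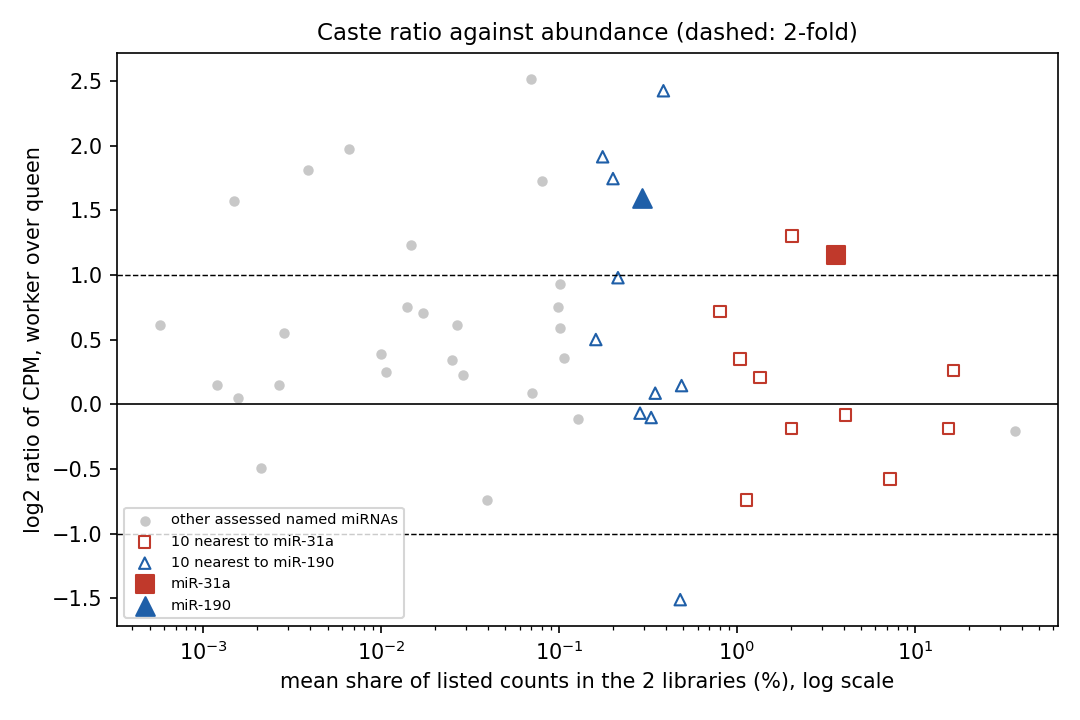
Log2 ratio of CPM, worker over queen, against mean share of listed counts (%, log scale) for the 49 named miRNAs with at least 20 counts; filled symbols are miR-31a (square) and miR-190 (triangle), open symbols the 10 nearest to each in mean share, and dashed lines mark 2-fold. miR-31a at 1.16 lies above 9 of its 10 neighbours, and miR-190 at 1.59 above 7 of its 10. Both were chosen for a larger worker share, so their place is partly set by that choice.

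There were 49 named miRNAs with at least 20 counts over both libraries. Their median log2 ratio of worker over queen was 0.36, with 37 above 0 and 12 below. This tilt towards worker turned with some other scalings. The median was −0.07 by TMM factors and −0.10 by median of ratios, each with 23 above 0 and 26 below. It was −0.16 with 22 and 27 when the 5 most abundant miRNAs were left out of the totals. With the rest it stayed above 0: 0.38 with totals of named miRNAs and 0.24 with totals lacking miR-275. Scaled to miR-275, miR-1, miR-184 and miR-305 it was 0.56, 0.10, 0.55 and 0.94. TMM and median of ratios set the typical entry near 0 by design, so they cannot show whether such a tilt is present. Counts of miRNAs above and below 0 in what follows are for scaling to the total. A miRNA was called higher in a caste when its ratio was at least 2-fold and its interval excluded 1. By this rule 12 of the 49 were higher in the worker library, which is 24.5%, and 1 in the queen library, which is 2.04%. Over all 136 entries that reached 20 counts, predictions included, 39 were called higher in worker, which is 28.7%. Another 15 of the 136 were called higher in queen, which is 11%, a larger part than among the named miRNAs. miR-31a and miR-190 are 2 of these 12, and since they were chosen on the same shares, nothing is read from that count. miR-190 had the eighth largest ratio of the 49, with 41 of the other 48 lower and 7 higher, and miR-31a the twelfth, with 37 lower and 11 higher. miR-31a was therefore the miRNA just inside the 2-fold threshold, 0.16 above it on the log2 scale, and miR-2 the one just outside, at a ratio of 1.97. miR-190 stood 0.59 above the threshold. Relative to the median named miRNA, miR-31a was 0.80 higher and miR-190 1.23 higher on the log2 scale.

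The ratios are given next by abundance. Of 11 named miRNAs with a mean share of at least 1%, the median log2 ratio was −0.08, with 5 above 0 and 6 below, and miR-31a and miR-71 were the 2 called higher in worker. Of 16 with a mean share from 0.1% to 1%, the median was 0.54, with 12 above 0 and 4 below, and 5 were called, 4 higher in worker, miR-190 among them, and miR-375 higher in queen. Of the 22 with a mean share under 0.1%, the median was 0.58, with 20 above 0 and 2 below, and 6 were called higher in worker. Across the 49, log2 mean share and log2 ratio were related with Pearson r = −0.20 and Spearman rho = −0.26. These points share the same 2 libraries and their totals, and the low-count miRNAs carry wide intervals.

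**Figure D3:**
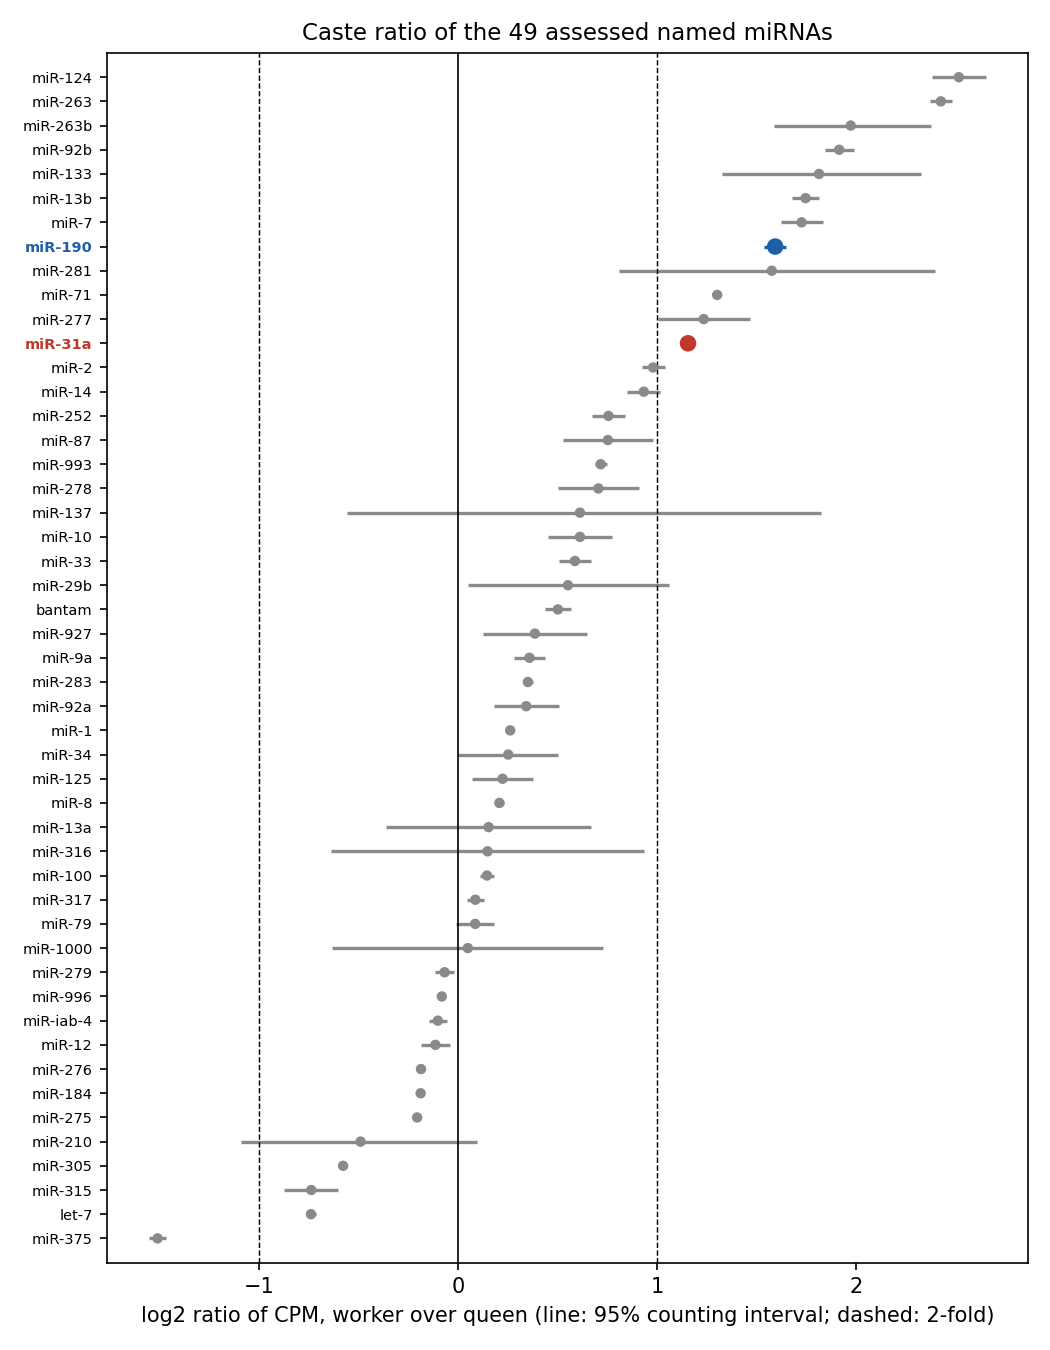
Log2 ratio of CPM, worker over queen, of the 49 assessed named miRNAs in order of that ratio, with miR-190 in blue and miR-31a in red; horizontal lines are 95% counting intervals and dashed lines mark 2-fold. miR-190 is eighth from the top at 1.59 and miR-31a twelfth at 1.16, the last above the upper dashed line.

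The named miRNAs most like miR-31a were those with the smallest difference in log2 ratio over the 2 libraries. They were miR-277, which in Drosophila controls the breakdown of branched-chain amino acids, at a difference of 0.08, miR-71 at 0.15 and miR-2 at −0.18. miR-277 had 482 worker and 235 queen counts, and its interval of 2.01 to 2.76 contained the ratio of miR-31a. The intervals of miR-71 and miR-2 did not. Those most like miR-190 were miR-281 at −0.02, miR-7 at 0.13 and miR-13b at 0.15. miR-281 rested on 52 worker and 20 queen counts, with an interval of 1.75 to 5.27 that held the ratios of both miR-190 and miR-31a. The intervals of miR-7, 3.08 to 3.56, and of miR-13b, 3.20 to 3.51, lay above the ratio of miR-190. With 1 library per caste, likeness in a single ratio is all that could be measured.

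How the libraries were scaled decided whether miR-31a reached 2-fold. Scaling with TMM factors, which assume that most entries are alike in the libraries, gave miR-31a a ratio of worker over queen of 1.66. Median of ratios gave 1.62, and totals without the 5 most abundant miRNAs gave 1.55. miR-190 had 2.24, 2.19 and 2.10 with the same 3 scalings, under each of which 18.4% of the 49 named miRNAs were called higher in worker. Predicted entries also entered TMM and median of ratios, and only 136 of all 692 entries reached 20 counts over both libraries. How far entries with low counts set the factors was not tested, so the values by TMM and median of ratios are approximate. Totals without the 5 most abundant miRNAs use no such factor and also left miR-31a under 2-fold. However, miR-31a was itself the most abundant entry left in those totals, so its own larger worker share lowered its ratio there. Counted against single leading miRNAs, a choice made after the values were seen, miR-31a had 148 counts per 1000 counts of miR-275 in worker and 57.5 in queen, a ratio of 2.57. Against miR-184 its ratio was 2.54 and against miR-305 it was 3.32, whereas against miR-1 it had 277 per 1000 in worker and 149 in queen, a ratio of 1.86. miR-190 had 13.0 counts per 1000 counts of miR-275 in worker and 3.73 in queen, a ratio of 3.48. Its ratio was 3.44 against miR-184, 4.50 against miR-305 and 2.52 against miR-1. Over 9 scalings other than the total, both were higher in worker in all 9. miR-190 was at least 2-fold higher in 9 and miR-31a in 5. Where miR-31a reached 2-fold, many other named miRNAs did as well: the share called higher in worker was 24.5% with totals lacking miR-275, 26.5% with totals of named miRNAs, 28.6% against miR-275 and against miR-184, and 46.9% against miR-305. Against miR-1, where miR-31a fell short, it was 20.4%.

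**Figure D4:**
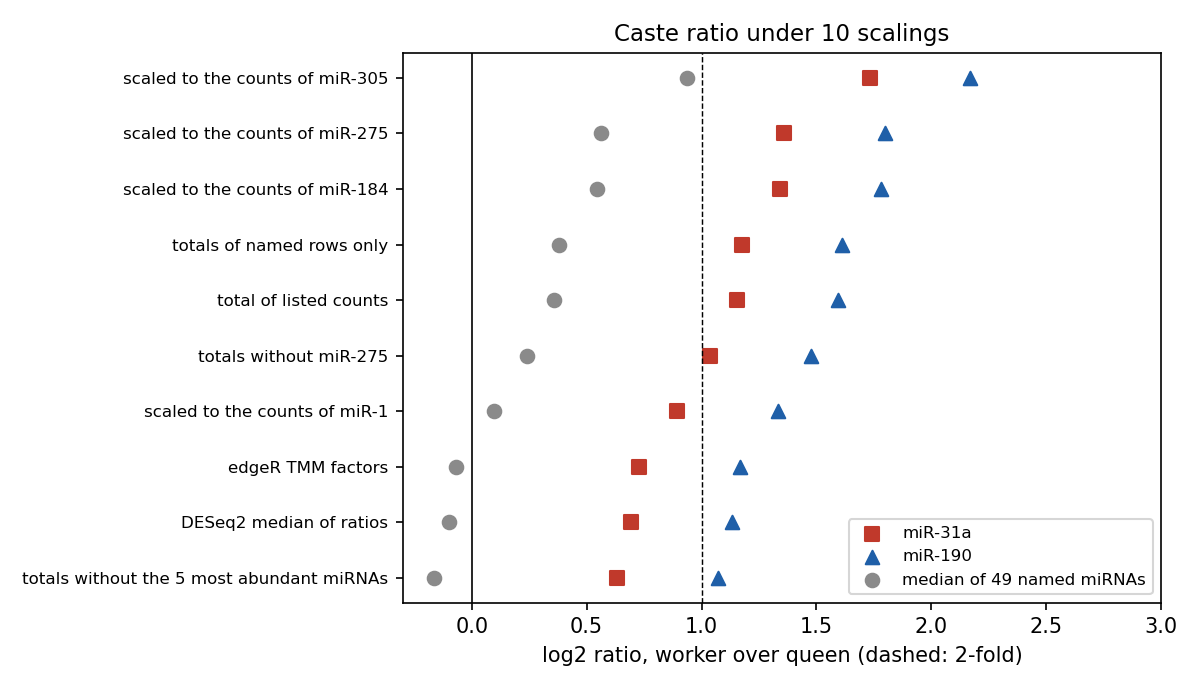
Log2 ratio of worker over queen for miR-31a (squares), miR-190 (triangles) and the median of 49 named miRNAs (circles) under scaling to the total of listed counts and 9 other scalings, each a row; the dashed line marks 2-fold. miR-31a runs from 0.63 to 1.73 and falls left of the dashed line under 4 scalings, while miR-190 runs from 1.07 to 2.17 and stays right of it.

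In the genes of the RefSeq assembly Amel_HAv3.1, used for names and neighbours, no other named miRNA of the count table lies within 10 kb or 50 kb of either; the predicted entries have no position and were not part of this. The gene of miR-31a lies within a long non-coding RNA gene, LOC102656787, between the protein-coding genes LOC113218925 and LOC411731. The gene of miR-190 lies within the protein-coding gene LOC551272. The table gives no strand, exons or descriptions, so whether these genes share a transcript with their miRNAs was not examined. The assembly lists 1 gene each under the names Mir31 and Mir190 with any suffix, and no second named entry of either kind occurs in the count table. Of the 49 assessed named miRNAs, 34 had no other named one within 10 kb, and their median log2 ratio was 0.57, with 28 above 0. Of these 34, 9 were called higher in worker, miR-31a and miR-190 among them, and 1, miR-375, in queen. Both members were chosen for lying in no cluster and for larger worker shares. They therefore add to this 9 and to the median by choice, and nothing is read from either. Over all 49, the share called higher in worker was 24.5%. The 15 with a neighbour had a median of 0.15, with 9 above 0 and 3 called higher in worker.

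Several miRNAs linked to tissues in Drosophila and other animals also took larger shares in the worker library. Their tissues in the bee were not measured, and their part in the values of miR-31a and miR-190 was not tested. The lists were chosen with earlier results of these data known, and other choices of members would give other counts and sums. Of 5 nervous-system miRNAs, 3 could be assessed and 2 were called higher in worker, miR-124 at 5.72-fold (5.22 to 6.28) and miR-7 at 3.31-fold. miR-137 had 16 worker and 12 queen counts, miR-932 had 8 and 4, and miR-219 had 2 and 0. The summed level of the 5 was 2433 CPM in worker and 588 CPM in queen. Both miRNAs linked to sensory organs, miR-263 and miR-263b, were called, at a summed 6613 CPM in worker and 1239 CPM in queen. Of the muscle pair, miR-133 was called at 3.51-fold (2.50 to 5.01) on 141 worker and 46 queen counts, while the abundant miR-1 had a ratio of 1.20. The pair summed to 180024 CPM in worker and 150113 CPM in queen.

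Among miRNAs linked to the midgut, miR-281 was called higher in worker at 2.98-fold (1.75 to 5.27) on 52 worker and 20 queen counts. The abundant miR-275 went the other way, with a ratio of 0.867 (0.865 to 0.870). Of 6 linked in Drosophila to fat body and growth, miR-277 was the 1 called, and their sum was 19333 CPM in worker and 15596 CPM in queen. miR-184, linked to the germline in Drosophila, had a ratio of 0.878 (0.874 to 0.882). By list, the ratio of summed worker over summed queen CPM was 5.34 for sensory organs, 4.14 for the nervous system, 1.24 for fat body and growth, 1.20 for muscle, 0.878 for the germline and 0.867 for the midgut. Such sums follow the most abundant member. In worker, miR-275 made up 337983 of the 338005 CPM of the midgut list, and miR-1 made up 179964 of the 180024 CPM for muscle. The germline list was miR-184 alone. By median log2 ratio the midgut list stood at 0.69, the other way from its sum. No direction of a tissue is read from these sums.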

How the data were processed

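Small RNA of 18 to 30 nt was gel-selected from Trizol extracts, ligated to 5′ and 3′ adapters, amplified and sequenced on the Solexa platform, per the labels' protocols. The values were whole-number counts per miRNA entry as deposited by the authors, with 1 column per caste and 692 entries; aligner, caller, genome build, annotation and the handling of multiply matching reads: not given in the sources used here. The table's 242 unnamed columns hold 0 filled cells. Counts were scaled to listed totals, where 1 count is 0.431 CPM in worker and 0.376 CPM in queen. Shares carry exact Clopper-Pearson intervals, counts exact Poisson ones and ratios exact conditional (Clopper-Pearson) ones; the interval of the quotient of quotients used a normal approximation on the log scale. Since PCR copies were not told apart by molecular identifiers, reads may not be independent molecules, and all intervals cover counting error only.

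For calling, at least 20 counts over both libraries were required and a count of 0 was replaced by 3. Neighbours were the 10 assessed named miRNAs nearest in log2 mean share, and the 3 nearest in log2 ratio were named as most alike. miR-996 against miR-31a and other rank exchanges were named because they were the entries that exchanged places, which was chosen after their values were seen, as were miR-276 and miR-2 as nearest in queen counts. The members, the tissue lists and the scalings were chosen with earlier results of these data known. edgeR 4.0.16 and DESeq2 1.42.0 (R 4.3.3) supplied scaling factors and no tests; intervals came from scipy 1.17.1, figures from matplotlib 3.10.9, and tables from pandas 2.3.3 with numpy 2.4.6 under Python 3.11.15. The calling step was tested on simulated data that held counting error alone, so that test says nothing on variation between larvae or libraries. All 53 named entries matched RefSeq gene names.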

Additional observations from a re-analysis of the deposited data

How the results depend on the processing

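The log2 ratio of worker over queen of miR-31a (1.16) was 0.73 by TMM, 0.69 by median of ratios, 0.63 with the 5 most abundant miRNAs left out of the totals, 1.18 with named totals and 1.04 without miR-275 in the totals. Against single miRNAs, added after seeing the data, it was 1.36 for miR-275, 0.89 for miR-1, 1.34 for miR-184 and 1.73 for miR-305. For miR-190 (1.59) the first 3 and the totals without miR-275 gave 1.17, 1.13, 1.07 and 1.48, and the single miRNAs, in the same order, 1.80, 1.33, 1.78 and 2.17; named totals left it within its interval at 1.61. Each change adds a constant to every log2 ratio, and the direction of both stayed worker.

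The distance of miR-31a above its neighbours' median (1.09) became 1.29 with 6 neighbours, 1.04 with 20 and 1.12 with neighbours by queen share, and kept its value by worker share. That of miR-190 (1.27) became 1.06, 1.16, 0.92 by queen share and 1.48 by worker share. The share of miR-31a was 5.24% in worker and 2.32% in queen with named totals, and 7.53% and 3.67% without miR-275. That of miR-190 was 0.460% in worker and 0.150% in queen with named totals, and 0.662% and 0.238% without miR-275. The 12 named miRNAs higher in worker became 20 when the threshold was 1.5-fold and 2 when it was 4-fold; the 1 higher in queen became 3 and 0. By scaling, that 1 became 4 (TMM), 4 (median of ratios) and 5 (totals lacking the 5 leading miRNAs). With a window of 50 kb the median log2 ratio of miRNAs without a named neighbour (0.57) was 0.59, and that of the others (0.15) also 0.15. A 99% interval leaves every ratio as it is, so it is no check on direction.

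No paired analysis was possible because there is 1 library per caste, and none was left out. Depth does not limit miR-31a or miR-190, whose counting intervals are narrower than the differences between scalings.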

Other observations

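Among predicted entries, 2 had a mean share within 2-fold of that of miR-190 and none had one within 2-fold of that of miR-31a, a window chosen after the data were seen. Predicted entry 15 had 14660 worker and 6430 queen counts, a ratio of worker over queen of 2.61 (2.54 to 2.69). Predicted entry 29 had 10278 worker and 14241 queen counts, a ratio of 0.827 (0.807 to 0.849). The ratio of miR-190, 3.02, was above both. The table gives no sequence for these entries, so whether either comes from a precursor near a named miRNA was not examined.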
